A study of Arabidopsis thaliana with 6 samples.

Results

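At 85 Arabidopsis thaliana loci, small RNAs bound to ARGONAUTE1 (AGO1) were low in ein5 dcl4 plants relative to wild type and were back to at least the wild-type value divided by 2 in ein5 dcl4 dcl2 plants, as measured in the deposited units. The loci were chosen from 32420 in the deposited table by their 3 genotype means. The Col-0 mean had to be at least 10 units, the ein5 dcl4 mean at most the Col-0 mean divided by 4, and the ein5 dcl4 dcl2 mean at least the Col-0 mean divided by 2. Loci of the chloroplast and mitochondrial genomes and 6 runs of locus IDs were left out. Of the 834 loci that reached 10 units in Col-0 outside those runs, 99 (11.9%) met the ein5 dcl4 threshold, 689 (82.6%) met the ein5 dcl4 dcl2 threshold and 85 (10.2%) met both. Among the 99 low loci, 85.9% met the ein5 dcl4 dcl2 threshold. The selection used every genotype mean, so the differences between genotypes are described below and were not tested. Whether the small RNAs count as back depends on how the libraries are scaled, as shown further on. The members were 12 miRNA loci, 24 protein-coding genes, 47 pseudogenes and 2 locus IDs with no RefSeq entry, AT3G42970 and AT5G35290.

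Wild-type plants were Col-0. The double mutant carried the alleles ein5-1 and dcl4-2, and the triple mutant carried dcl2-1 in addition to both. All were untreated and were harvested at 20 days of age, after 6 days on MS medium and 14 days on soil. Small RNAs were taken from the aerial parts with an antibody against AGO1, and 2 biological replicates were prepared per genotype. All libraries came from AGO1 immunoprecipitates of whole aerial parts, so a lower value can reflect less small RNA per cell, fewer cells that make it, or less of it loaded onto AGO1, and these cannot be told apart.

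AGO1 is the main effector of plant miRNAs, which guide it to complementary mRNAs, and it prefers small RNAs that begin with uridine. DCL1 cuts miRNAs from hairpin transcripts, whereas DCL4 and DCL2 cut siRNAs from long double-stranded RNA and can act on the same substrates. EIN5, the cytoplasmic 5′-to-3′ exonuclease XRN4, removes uncapped mRNA. When decay by EIN5 and processing by DCL4 are both missing, mRNAs can enter silencing through DCL2, and the siRNAs made there can also be bound by AGO1.

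The mature sequences of the miRNA members are shown because the loci compared below differ from their relatives by few bases or none. Each was read from the RefSeq TAIR10.1 genome on the strand of its gene and is written 5′ to 3′ with the seed, bases 2 to 8, in capitals.
miR165a-3p and miR165b: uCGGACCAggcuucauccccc
miR173-5p: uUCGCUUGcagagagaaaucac
miR319b: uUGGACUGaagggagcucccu
miR773a: uUUGCUUCcagcuuuugucuc
miR171b-3p and miR171c-3p: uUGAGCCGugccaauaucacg
miR167b: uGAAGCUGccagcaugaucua
miR825: uUCUCAAGaaggugcaugaac
miR847: uCACUCCUcuucuucuugaug
miR841a-5p: uACGAGCCacuugaaacugaa
miR864-5p: uCAGGUAUgauugacuucaaa
The 12 loci carry 18 annotated mature products, of which 14 begin with U, 16 have 21 bases and 2 have 22 bases. Each of the 12 loci has at least 1 product that begins with U. The only shared seeds are those of the MIR165 pair and the MIR171 pair, which have the same mature miRNA within each pair.

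The relatives below are printed with bases that differ from the member in capitals, and positions are counted from 1 at the 5′ end.
miR166e-3p: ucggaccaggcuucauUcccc
miR319a: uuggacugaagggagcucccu
miR319c: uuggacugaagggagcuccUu
miR167a-5p: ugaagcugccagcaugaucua
miR167d: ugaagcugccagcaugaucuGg
All 7 MIR166 loci have the same mature miRNA, which differs from miR165 by C17U. MIR319a has the mature sequence of MIR319b, and MIR319c differs from it by C20U. MIR167a has the mature sequence of MIR167b, whereas MIR167d differs by A21G and is 1 base longer.

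Each deposited value was the mean of 2 libraries, from which the whole reads of both were recovered. The libraries are called a and b, and they held 836879 to 1292727 reads each. What total the deposited unit refers to is not stated. A single read equalled 0.185 or 0.257 units in wild-type libraries, 1.92 or 2.79 units in those of ein5 dcl4 and 1.71 units or slightly more in those of ein5 dcl4 dcl2. Protein-coding loci held 1229408 and 787008 reads in the ein5 dcl4 libraries, against 193176 and 139407 in wild-type libraries and 14879 and 12960 in those of ein5 dcl4 dcl2, and miRNA loci held 47748 and 40183 reads in ein5 dcl4 against 652899 or more in the other libraries. The reads at EIN5, DCL4 and DCL2, at most 26, 8 and 2 in a library, were too few to check the genotypes.

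As a class, the miRNA members had the highest summed value, most of it at MIR165b. Below, ein5 dcl4 is called the double mutant and ein5 dcl4 dcl2 the triple mutant. Their summed value was 16804 ± 1501 units (SD, n = 2) in Col-0, 3056 ± 573 in the double mutant and 152488 ± 25506 in the triple mutant. All 12 were below both Col-0 libraries in both double mutant libraries, as were 67.8% of the 59 miRNA loci with at least 10 units in Col-0. All 12 were also above both Col-0 libraries in both triple mutant libraries, and so were 98.3% of the 59, so the height of the return was shared by nearly all miRNA loci. The median log2 ratio of the double mutant to Col-0 was −2.55 over the 12 and −1.04 over the 59. The median log2 ratio of the triple mutant to Col-0 was 3.20 over the 12 and 3.08 over the 59.

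MIR165b, at chr4:369831-370012 on the minus strand of TAIR10.1, held the most small RNA of all members. miR165 and miR166 repress the class III HD-ZIP transcription factors that set leaf polarity and meristem function. MIR165b had 62662 and 54914 reads in Col-0, 1085 and 953 in the double mutant, and 79866 and 57322 in the triple mutant. These came to 12847 ± 1760, 2368 ± 410 and 122676 ± 19461 units (SD, n = 2), and no library of one genotype overlapped another. The double mutant value was 0.184 of the Col-0 value, with an exact 95% counting interval of 0.175 to 0.191 over the pooled reads. MIR165a (chr1:78927-79037, minus strand) went from 5394 and 4285 reads in Col-0 to 90 and 82 in the double mutant and 6612 and 4550 in the triple mutant. Its means were 1049 ± 71.3, 201 ± 39.8 and 9970 ± 1874 units. Although the mature miRNA is the same, MIR165b held 11.6 to 12.8 times the reads of MIR165a in every one of the 6 libraries. How the authors assigned reads that match both loci is not stated, so the pair may not be independent measurements.

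The 7 MIR166 loci were also lower in the double mutant, but less so, at 0.432 to 0.546 of Col-0 against 0.184 and 0.191 for MIR165b and MIR165a. MIR166e, MIR166f and MIR166g had nearly equal reads in every library, such as 132917, 132917 and 133074 in Col-0 library a. They are therefore close to 1 measurement counted at each of these loci. A ratio of reads within a library does not depend on the deposited scaling. MIR165b met the double mutant threshold and MIR166e did not, so a lower ratio there largely follows from the selection. MIR165b held 47.1% and 48.9% of the reads of MIR166e in the Col-0 libraries, 20.8% and 16.9% in the double mutant, and 36.7% and 36.6% in the triple mutant. This ratio was lowest in both double mutant libraries and was below Col-0 in both libraries of the triple mutant.

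MIR173 (chr3:8236153-8236254, plus strand) makes the miRNA that starts phased siRNA production from the TAS1 and TAS2 transcripts, and its product of 22 bases is the form known to trigger it. It held 11253 and 6223 wild-type reads, 149 and 148 in the double mutant, and 7626 and 4726 in the triple mutant. The means were 1840 ± 344, 349 ± 90.1 and 11004 ± 2862 units. Relative to their mean, the Col-0 libraries differed from each other by more than for MIR165b, yet both lay above both double mutant libraries. The 8 TAS loci looked for were not in the table and are not analysed here.

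MIR319b (chr5:16660469-16660640, minus strand) belongs to the family that represses TCP transcription factors of leaf growth. It held 1954 and 1486 wild-type reads, 32 and 20 in the double mutant, and 2929 and 2585 in the triple mutant, or 372 ± 13.8, 58.5 ± 3.89 and 4958 ± 65.1 units. Its relatives with at least 10 units in Col-0 did not meet the double mutant threshold. MIR319a, with the same mature sequence, stood at 0.696 of Col-0 in the double mutant, and MIR319c stood at 1.08. Within libraries, MIR319b held 23.4% and 21.6% of the reads of MIR319a in Col-0, 4.62% and 5.67% in the double mutant, and 34.9% and 28.1% in the triple mutant. The ratio was below Col-0 in both double mutant libraries and above it in both triple mutant libraries. Its low double mutant value largely follows from the selection, because MIR319b met the threshold there and MIR319a did not. The 2 loci share their mature sequence but not their read counts, and how the authors assigned reads that match both is not stated.

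MIR773a (chr1:13067251-13067335, plus strand), whose miRNA targets the DNA methyltransferase gene MET2, had 2837 and 2177 reads in Col-0. It kept 17 and 28 in the double mutant and held 1871 and 910 in the triple mutant. The means were 542 ± 23.6, 55.3 ± 32.2 and 2463 ± 1037 units, and the triple mutant libraries were far apart but both above Col-0. At 0.102 of Col-0, with a counting interval of 0.0690 to 0.127, it was the lowest in the double mutant of the 5 miRNA members with over 100 units in Col-0.

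**Figure D1:**
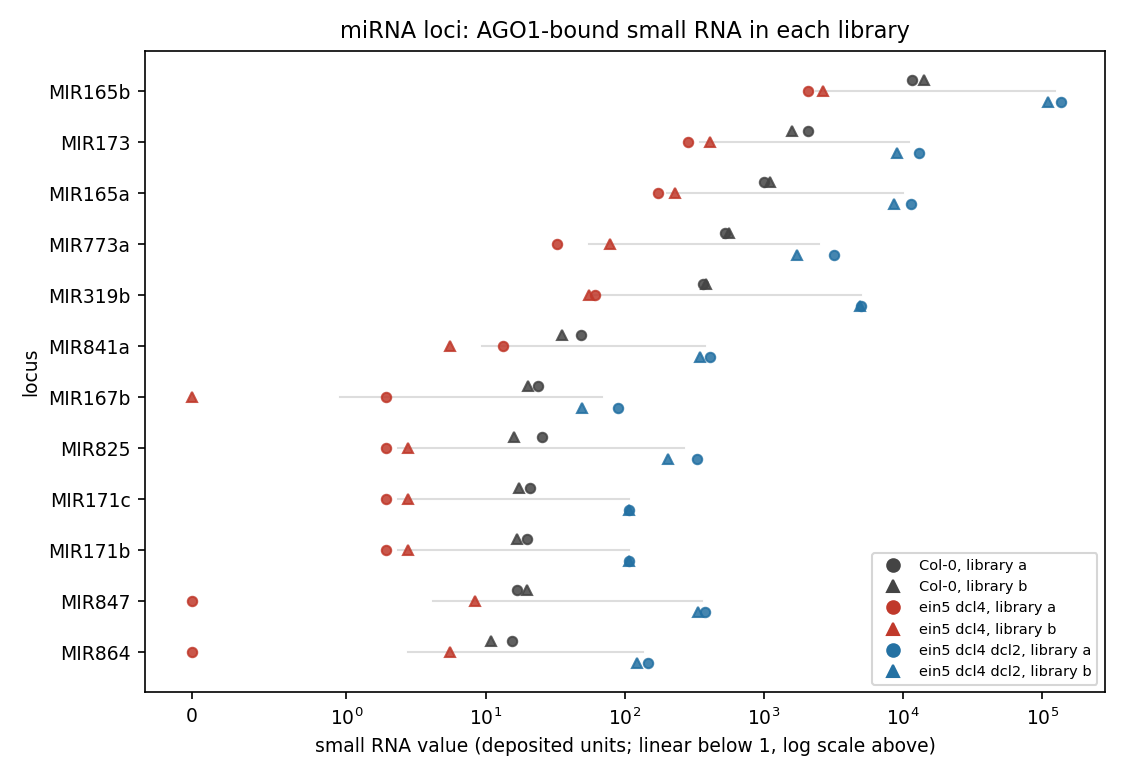
Small RNA value of the 12 miRNA members in each of the 6 libraries, in deposited units on an axis that is linear below 1 and logarithmic above. Circles and triangles are libraries a and b, and the grey line joins the lowest and highest genotype means. Both ein5 dcl4 libraries lie left of both Col-0 libraries, and both ein5 dcl4 dcl2 libraries right of them, at all 12 loci.

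The other 7 miRNA members had 13.3 to 42.1 units in Col-0 and rested on few reads in the double mutant. MIR841a had 264 and 138 reads in Col-0, 7 and 2 in the double mutant and 238 and 182 in the triple mutant. MIR167b, whose miRNA represses auxin response factor genes, had 128 and 79 reads in Col-0, 1 and 0 in the double mutant and 52 and 26 in the triple mutant. Its double mutant value was 0.0436 of Col-0, the lowest ratio of the miRNA members, with a counting interval of 0.00128 to 0.287. MIR167a, with the same mature sequence, stood at 0.488 of Col-0 on 1 and 5 double mutant reads, and the more abundant MIR167d at 0.381 on 146 and 97. MIR167c, below the Col-0 minimum at 1.60 units on 9 and 6 reads, had 52.3 units in the double mutant on 24 and 21 reads, the other direction.

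MIR171b and MIR171c, which repress GRAS-family regulators of the shoot meristem, had nearly equal reads in every library. MIR171c held 112 and 68 wild-type reads, 1 and 1 in the double mutant and 63 and 56 in the triple mutant, and MIR171b differed from it by at most 4 reads in a library. The pair is therefore close to 1 measurement counted at 2 loci. MIR171a, on 0 and 1 double mutant reads, was below the Col-0 minimum at 5.49 units.

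MIR825 had 137 and 62 reads in Col-0, 1 and 1 in the double mutant, and 192 and 108 in the triple mutant. MIR847, whose miRNA targets the auxin repressor gene IAA28, had 91 and 78 reads in Col-0, 0 and 3 in the double mutant, and 221 and 177 in the triple mutant. Its triple mutant mean of 357 ± 29.2 units was 19.4 times the Col-0 mean of 18.4 ± 2.24, the highest ratio of all 85 members. MIR864 had 84 and 43 reads in Col-0, 0 and 2 in the double mutant and 86 and 64 in the triple mutant. In deposited units all of these lay above Col-0 in the triple mutant, while the read counts of MIR864 and MIR841a were close to those of Col-0.

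As shares of all miRNA reads in a library, which the deposited scaling does not touch, the 12 loci were also lowest in the double mutant. They were selected as low in the double mutant, so a low share there largely follows from the selection. Together they took 10.7% ± 0.00515 (SD, n = 2) of miRNA reads in Col-0, 2.99% ± 0.134 in the double mutant and 9.06% ± 0.452 in the triple mutant. MIR165b alone took 8.13% ± 0.394, 2.32% ± 0.0702 and 7.30% ± 0.300. The MIR166 loci took 55.2% ± 1.44, 41.0% ± 7.34 and 63.5% ± 2.62. These miRNA totals, also used for a rescaling below, thus include the nearly equal reads of MIR166e, MIR166f and MIR166g. On this scale both triple mutant libraries lay below both Col-0 libraries at 7 of the 12, which were MIR165a, MIR165b, MIR173, MIR773a, MIR167b, MIR171b and MIR171c. They lay above at 2 and overlapped Col-0 at the other 3, MIR841a, MIR825 and MIR864. The same counts were not made over the 59 miRNA loci, so they do not show a trait of the members. MIR173 went from 1.18% ± 0.323 to 0.340% ± 0.0398 and 0.650% ± 0.0940, and MIR773a from 0.344% ± 0.0156 to 0.0526% ± 0.0241 and 0.144% ± 0.0449. MIR319b, at 0.236% ± 0.0122, 0.0584% ± 0.0122 and 0.297% ± 0.0312, and MIR847, at 0.0117% ± 0.000383, 0.00373% ± 0.00528 and 0.0213% ± 0.000775, were above Col-0 in both triple mutant libraries.

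**Figure D2:**
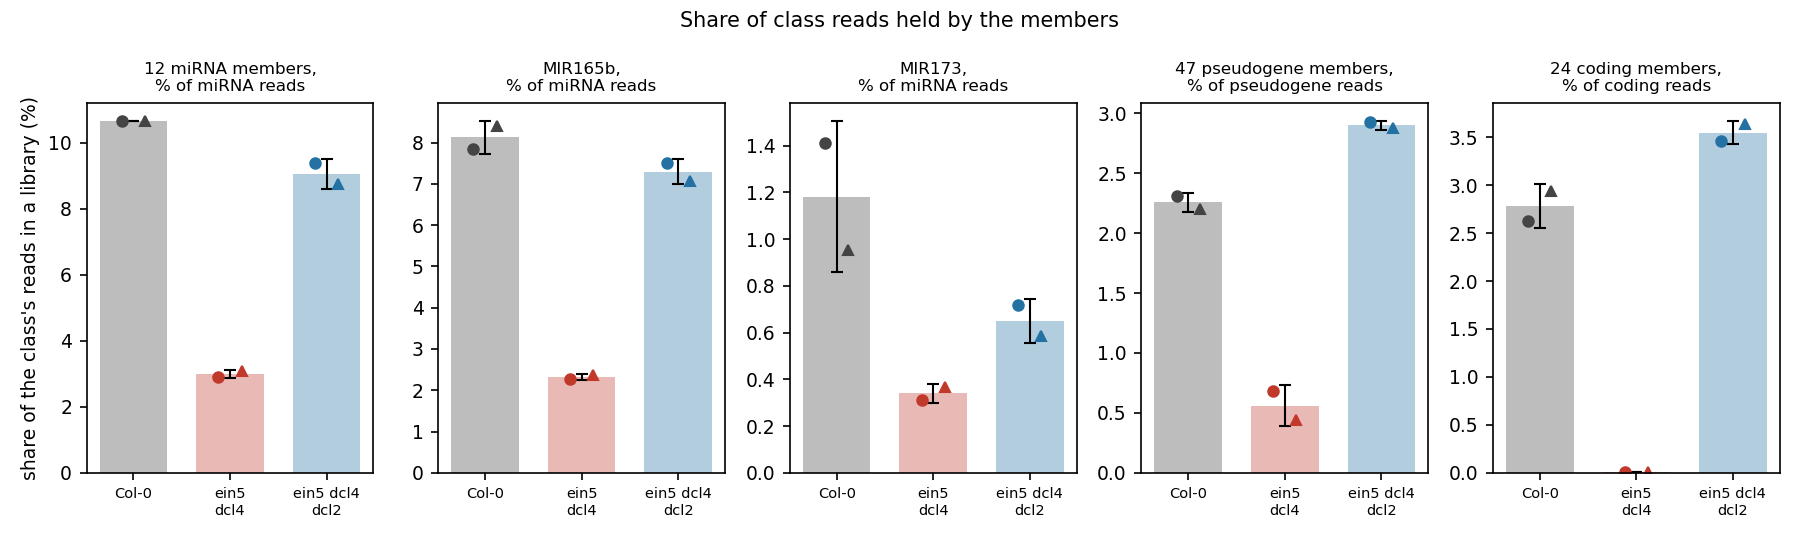
Share of a class's reads held by the members in each library, in percent. Bars are means of 2 libraries, error bars are 1 SD, and circles and triangles are libraries a and b. The 12 miRNA members hold 10.7% of miRNA reads in Col-0, 2.99% in ein5 dcl4 and 9.06% in ein5 dcl4 dcl2, and the members of the other classes are also lowest in both ein5 dcl4 libraries. All members were selected as low in ein5 dcl4, so the low miRNA and pseudogene shares there largely follow from the selection. The summed value of the protein-coding members fell from 995 units in Col-0 to 148 units in ein5 dcl4, far less than their share. In deposited units, most of the fall in that share therefore came from a larger protein-coding total, which the selection did not set.

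All of the 24 protein-coding members were below both Col-0 libraries in both double mutant libraries, as were 65.2% of the 132 such loci with at least 10 units in Col-0. In the triple mutant they stood at 0.529 to 3.80 times Col-0, with a median of 0.956, and so came back lower than the miRNA members, at 3.14 to 19.4 times Col-0. They summed to 995 ± 80.9 units in Col-0, 148 ± 23.8 in the double mutant and 887 ± 10.7 in the triple mutant (SD, n = 2). In the double mutant the median log2 ratio to Col-0 was −3.34, against −1.05 over the 132, and it was −2.52 with the 6 members at 0 reads put at the limit of 3 reads per library. The median log2 ratio of the triple mutant to Col-0 was −0.07, against −0.39 over the 132. In both triple mutant libraries, 8 of the 24 were above both Col-0 libraries (26.5% of the 132). Another 10 were below (72 of the 132) and 6 overlapped them (25 of the 132). These members held 2.78% ± 0.226 of protein-coding reads in Col-0, 0.00648% ± 0.000724 in the double mutant and 3.55% ± 0.122 in the triple mutant. The total they are set against was several times larger in the double mutant, as given above.

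AT3G41762 (chr3:14195447-14196865), an uncharacterized gene, had the most small RNA among them. It held 1956 and 1704 wild-type reads, 49 and 25 in the double mutant and 153 and 125 in the triple mutant, or 400 ± 53.1, 81.8 ± 17.1 and 249 ± 16.9 units. Of its stretches of 21 bases, 91.4% occur elsewhere in the genome, and it overlaps AT3G41761, AT3G06325 and AT3G06345. Whether its reads came from other loci was not tested. AGL36 (chr5:9343785-9345011), a MADS-box gene known to be imprinted in the seed endosperm, held 456 and 332 wild-type reads, 6 and 6 in the double mutant, and 35 and 26 in the triple mutant. It stood at 84.8 ± 0.541, 14.1 ± 3.71 and 54.6 ± 7.35 units, with each genotype apart from the others. AGL90, a related MADS-box gene, went from 35.6 ± 3.42 to 5.66 ± 0.119 and 23.5 ± 1.76 units. AGL36 and AGL90 share 477 stretches of 21 bases, so they are not independent measurements.

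AT1G66290 (chr1:24713306-24714843), which encodes an F-box protein, showed the deepest loss with any read left. It had 251 and 198 reads in Col-0, 1 and 0 in the double mutant, and 37 and 31 in the triple mutant. Its means were 48.6 ± 3.07, 0.958 ± 1.35 and 61.1 ± 3.04 units, and its double mutant ratio of 0.0197 had a counting interval of 0.000594 to 0.132. AT4G03740, an uncharacterized gene, had 272 and 201 reads in Col-0, 2 and 2 in the double mutant, and 27 and 18 in the triple mutant. Both mutants of this gene were below Col-0, at 4.70 ± 1.24 and 40.2 ± 8.43 against 51.0 ± 0.861 units.

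No read was left in either double mutant library at 6 protein-coding members. AT2G25410, which encodes a RING/U-box protein, had 114 and 104 reads in Col-0 and 15 and 14 in the triple mutant, which came to 23.9 ± 3.95 and 26.1 ± 0.690 units. AT2G04060, a glycosyl hydrolase gene, had 131 and 75 reads in Col-0 and 14 and 10 in the triple mutant. AT5G35300 had 117 and 86 reads in Col-0 and 8 and 5 in the triple mutant, so it returned to 11.6 ± 2.95 of 21.9 ± 0.287 units. AT1G64340, AT1G67635 and AT4G34690 were the others. Over the 9 members of any class with no double mutant read, the Col-0 values were 10.2 to 23.9 units, and with 3 reads per library as the limit that a count of 0 allows, the 9 were at least 1.44-fold to at least 3.39-fold lower in the double mutant.

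Of the protein-coding members, 8 lay above Col-0 in both triple mutant libraries. GH9B11, a cell wall glycosyl hydrolase gene, had 57 and 37 reads in Col-0, 2 and 0 in the double mutant, and 19 and 23 in the triple mutant, a mean of 38.1 ± 7.95 against 10.02 ± 0.749 units in Col-0. MRU1, at chr5:13689817-13690548, had 82 and 56 reads in Col-0, 1 and 1 in the double mutant, and 27 and 33 in the triple mutant, or 54.4 ± 11.7 against 14.8 ± 0.574 units. AT3G43260 had 37.7 ± 2.26 against 16.4 ± 0.717 units. Other members stayed under Col-0, among them AT2G04063, which encodes a glycine-rich protein, at 21.6 ± 0.925 against 40.7 ± 8.10 units. CYP79A4P, a cytochrome P450 gene whose RefSeq name calls it a pseudogene, had triple mutant libraries far apart, at 7 and 19 reads. AT1G36675, which also encodes a glycine-rich protein, and AT5G36080, which encodes a Myb/SANT-like protein, had 25.5 ± 7.0 against 33.5 ± 2.65 and 25.5 ± 9.55 against 27.6 ± 0.533 units. The first lay below both Col-0 libraries and the second overlapped them.

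**Figure D3:**
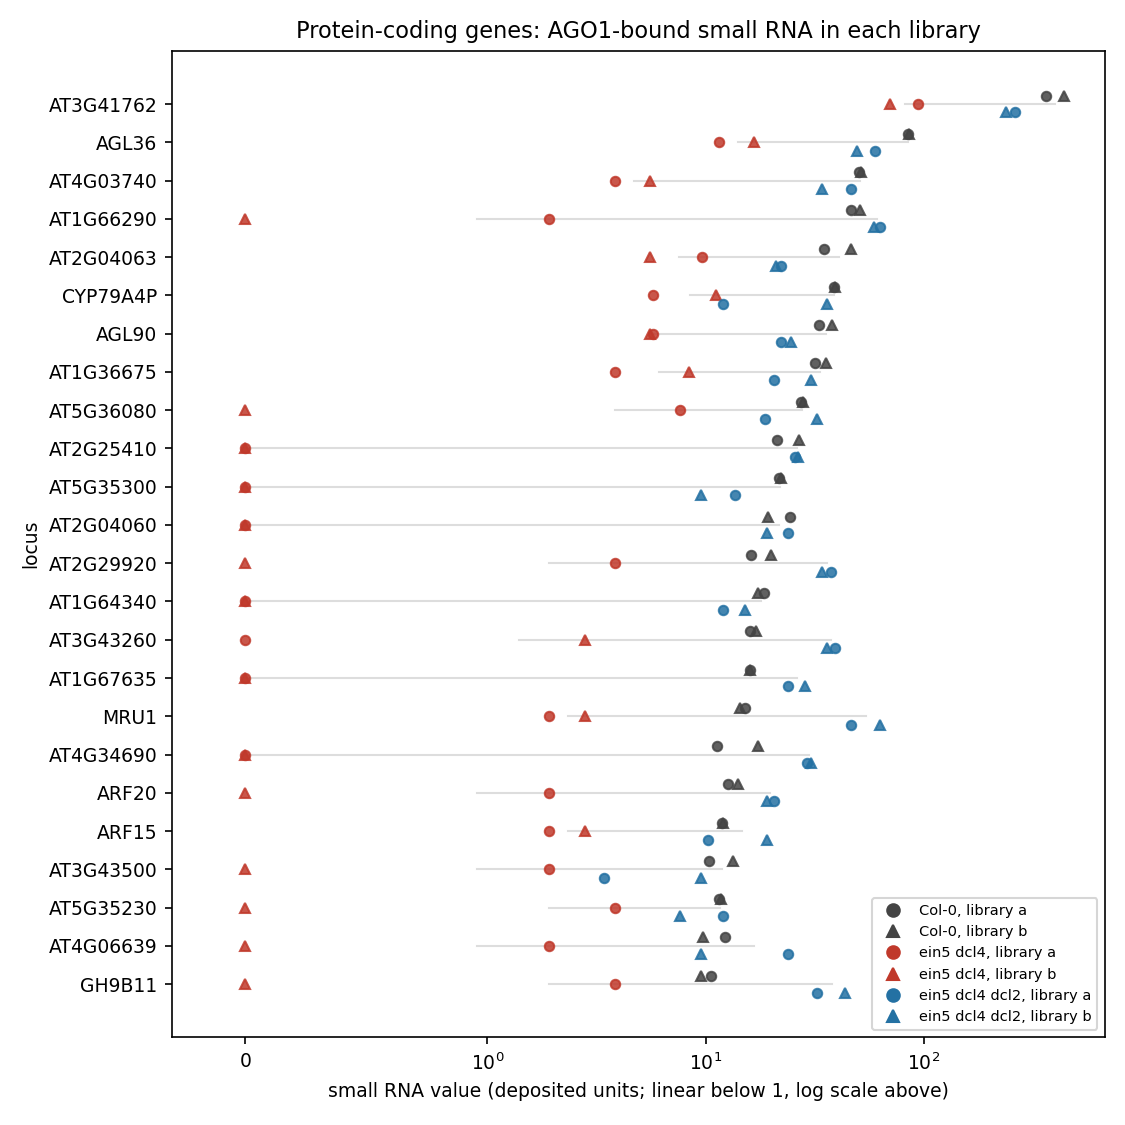
Small RNA value of the 24 protein-coding members in each of the 6 libraries, in deposited units on an axis that is linear below 1 and logarithmic above. Circles and triangles are libraries a and b, and the grey line joins the lowest and highest genotype means. At 6 loci both ein5 dcl4 libraries are at 0, and the ein5 dcl4 dcl2 libraries lie above Col-0 at 8 loci, below at 10 and across it at 6.

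Pseudogenes were the largest class, with 47 of the 85 members. All 3 thresholds were met by 7.39% of 636 pseudogenes, 18.2% of 132 protein-coding loci and 20.3% of 59 miRNA loci. The double mutant threshold alone was met by 8.33% of the 636, and both double mutant libraries lay below both Col-0 libraries at all 47 members and at 64.8% of the 636. Many annotated pseudogenes of this genome are remnants of transposons, a usual source of siRNAs in wild-type plants. The 47 had low values, 10.1 to 55.1 units in Col-0. They summed to 915 ± 27.3 units in Col-0, 152 ± 56.5 in the double mutant and 1128 ± 37.3 in the triple mutant, and to 2.26% ± 0.0794, 0.560% ± 0.171 and 2.90% ± 0.0362 of pseudogene reads. Their median log2 ratio of the double mutant to Col-0 was −2.61, or −2.54 with the 3 at 0 reads put at the limit, against −0.78 over the 636. The median log2 ratio of the triple mutant to Col-0 was 0.21 against −0.33. In both triple mutant libraries, 21 of the 47 lay above both Col-0 libraries (17.9% of the 636). Another 15 lay below (310 of the 636) and 11 overlapped them (212 of the 636).

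AT2G07150 (chr2:2962953-2964182) had the highest Col-0 value among the pseudogenes. It held 319 and 199 wild-type reads, 6 and 2 in the double mutant, and 37 and 14 in the triple mutant, with a triple mutant mean of 44.9 ± 25.9 against 55.1 ± 5.66 units in Col-0. One triple mutant library lay above both Col-0 libraries and the other below both. AT1G35740, a pseudogene of a glucan synthase gene, had 236 and 159 reads in Col-0, 7 and 2 in the double mutant, and 35 and 30 in the triple mutant. Its neighbour AT1G35745 had 193 and 123, 4 and 3, and 53 and 37. Both neighbours were above Col-0 in both triple mutant libraries, at 58.4 ± 1.97 against 42.3 ± 2.05 units and at 80.4 ± 14.3 against 33.7 ± 2.95.

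The highest return among pseudogenes was that of AT1G19420, a pseudogene of a cysteine- and histidine-rich protein gene with 279 protein-coding genes within 500 kb. It had 66 and 37 reads in Col-0, 0 and 1 in the double mutant, and 44 and 44 in the triple mutant, and its triple mutant mean of 79.4 ± 5.97 units was 7.31 times that of Col-0. AT2G04035 and AT5G27603 followed at 3.28 and 3.15 times Col-0. No double mutant read was found at AT2G07486, AT1G36915 and AT5G35260, which held 16.3 ± 1.60, 10.8 ± 1.85 and 10.2 ± 0.255 wild-type units and 28.01 ± 3.38, 19.5 ± 8.71 and 18.1 ± 3.91 in the triple mutant. Of the other abundant pseudogenes, AT1G42610, AT2G07570, AT1G36650 and AT4G06585 stood at 0.802 to 1.21 times Col-0 in the triple mutant, and AT1G43200, AT2G14370, AT2G06650, AT1G26860 and AT2G06580 at 0.513 to 0.627. The latter 5 were all below both Col-0 libraries in both triple mutant libraries. SADHU9-1, annotated as a Sadhu non-coding retrotransposon, had 86 and 76 reads in Col-0, 1 and 0 in the double mutant and 4 and 13 in the triple mutant, and was picked out after its values were seen.

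The 2 IDs without a RefSeq entry came back to 0.523 and 0.502 of Col-0. AT3G42970 had 30.7 ± 4.23, 6.10 ± 3.21 and 16.0 ± 3.88 units in Col-0, the double mutant and the triple mutant, and AT5G35290 had 21.5 ± 2.19, 1.92 ± 2.71 and 10.8 ± 0.813. Both remained below both Col-0 libraries in the triple mutant.

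**Figure D4:**
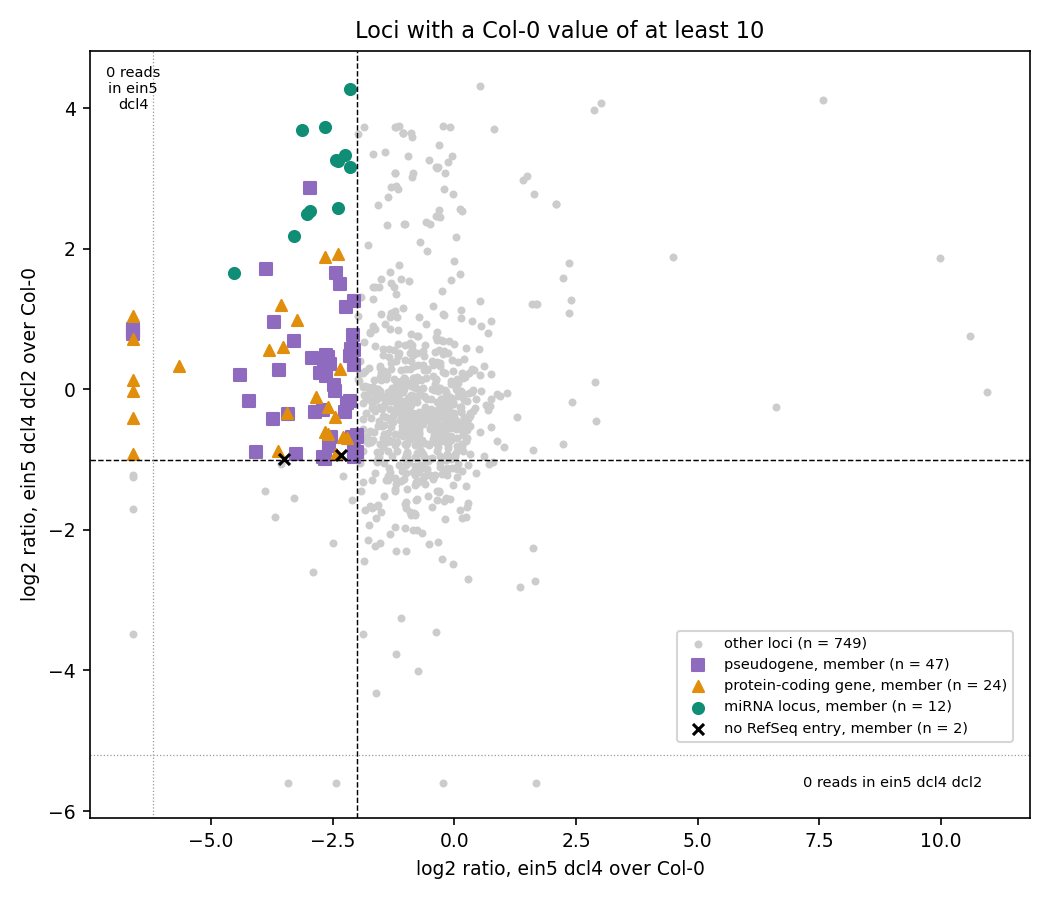
Log2 ratio of ein5 dcl4 to Col-0 (horizontal) and of ein5 dcl4 dcl2 to Col-0 (vertical) of the 834 loci with at least 10 units in Col-0, with the 85 members coloured by class. Dashed lines are the thresholds of the selection, and loci with no read in a mutant are drawn beyond the dotted lines. The 12 miRNA members lie between 1.65 and 4.28 on the vertical axis, and the protein-coding genes and pseudogenes spread around 0, up to 1.93 and 2.87.

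Over all 85, both double mutant libraries lay below both Col-0 libraries at 85 loci, against 65.3% of the 834, and both triple mutant libraries lay above both double mutant libraries at 82, against 44.4%. The selection fixed the means behind both counts. The 3 exceptions, AT1G36330, AT1G37603 and AT5G35615, are pseudogenes. Against Col-0, 41 members were above both libraries in the triple mutant (24.9% of the 834), 27 were below both (46.6%) and 17 overlapped them. The 41 were 12 miRNA loci, 8 protein-coding genes and 21 pseudogenes.

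The loss in the double mutant rested on few reads. Both double mutant libraries together held 0 reads at 9 members, 1 to 3 at 49, 4 to 9 at 20 and 10 or more at 7. Those 7 were MIR165a, MIR165b, MIR173, MIR773a, MIR319b, AT3G41762 and AGL36. For 63 members the Col-0 value was under 28.2 units, the value at which 3 reads in each double mutant library would equal the Col-0 mean divided by 4. The exact 95% counting interval of the double mutant to Col-0 ratio lay below 1 for all 85 members but below the threshold ratio for 11, which were 5 miRNA loci and 6 protein-coding genes. Such intervals cover counting error only. They were computed for the members alone, from the reads that the selection used, so they give no independent evidence of a loss.

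Loci on either side of the thresholds differed little. GH9B11 and AT1G41860 were just inside the Col-0 minimum at 10.02 and 10.07 units, and AT5G28141 and AT1G44085 just outside at 9.98 and 9.84. In the double mutant, AT2G13170 and AT2G06650 had 0.2497 and 0.2489 of the Col-0 value, and AT4G05633 and AT1G35735 had 0.252 and 0.253. In the triple mutant, AT4G03923 and AT5G35290 had 0.501 and 0.502 of the Col-0 value, and AT3G42870 and AT2G07521 had 0.478 and 0.431.

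The return depended on which rescaling was used. In the deposited units the median log2 ratio of the triple mutant to Col-0 was 0.29 over the members and −0.28 over the 834 loci. With every library set to the same total of miRNA reads, the members' median was −3.11 and 5 of the 85 met all 3 thresholds: MIR171b, MIR171c, MIR825, MIR319b and the pseudogene AT1G19420. With every library set to the same table total, 14 of the 85 did, 11 of them miRNA loci, and the median was −2.58. With a trimmed mean of M values, 67 of the 85 did, and the median was 0.27, close to that of the deposited units. The first 2 scalings shift the log2 ratio of the triple mutant to Col-0 by −3.41 and −2.88 for all loci alike, and the medians over the 834 became −3.68 and −3.15. The double mutant medians were −2.44 with the trimmed mean, −2.002 with equal miRNA totals and −6.02 with equal table totals, against shifts of 0.21, 0.64 and −3.35. Over the 834 loci the same medians were −0.61, −0.18 and −4.17. The selection required a low double mutant value, so none of these shifts could have brought the members' median to 0.

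The members were spread over the nuclear chromosomes, with 29 on chromosome 1, 17 on chromosome 2, 8 on chromosome 3, 13 on chromosome 4 and 16 on chromosome 5. The largest run with gaps of at most 1 Mb was chr1:12927303-14245015, with 13 members, of which 9 were pseudogenes, 3 were protein-coding and 1 was MIR773a. A further 10 lay in chr5:13489978-14312221 and 9 in chr2:1293576-3179517. How the 834 loci divide among chromosomes and runs was not counted. The left-out ID runs lay on chromosomes 1, 2, 3 and 5 and not on chromosome 4. The counts therefore do not show a preference of the members for any chromosome or region. Within 500 kb of a member, the median number of protein-coding gene starts was 254.5 for miRNA loci, 146 for protein-coding genes and 93 for pseudogenes, and for the other loci with at least 10 units in Col-0 it was 269, 187.5 and 78. Fewer than 200 such genes were found near 44 of 47 pseudogene members and 14 of 24 protein-coding members. The same held for 78.2% of the 827 loci of the 834 that have a RefSeq position, with all classes pooled. Of these loci 636 are pseudogenes, and the share within each class was not computed.

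Repeated sequence was not used in the selection. A median of 16.2% of the 21-base stretches of the pseudogene members occur elsewhere, against 46.9% in the other 589 pseudogenes, and the members were shorter, at a median of 1771 against 3495 bases. The medians were 14.2% against 14.0% for protein-coding genes and 1.18% against 7.63% for miRNA loci. Among the members, 20 pairs share such stretches and 5 pairs share 100 or more, led by AT2G06580 and AT2G06650 with 2035 and by the auxin response factor genes ARF20 and ARF15 with 1333. No mature miRNA of the annotation was found, with up to 1 mismatch on either strand, in a member that is not a miRNA locus.

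**Figure D5:**
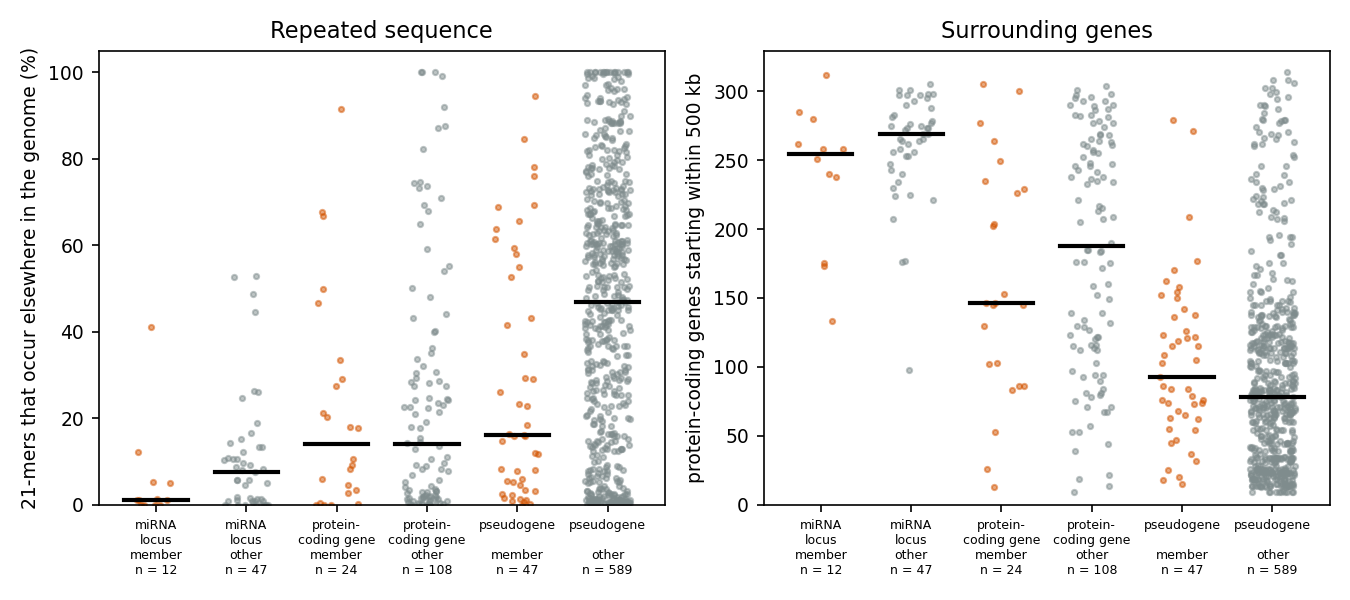
Share of 21-base stretches that occur elsewhere in the genome (left, in percent) and number of protein-coding genes that start within 500 kb (right), for members and for the other loci with at least 10 units in Col-0. Each point is 1 locus and black lines are medians. Pseudogene members have a median of 16.2% repeated stretches against 46.9% in other pseudogenes, while the surrounding gene numbers of members and other loci overlap in each class.

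Genes of the silencing machinery were not among the members. Of 10 looked at, DCL1, AGO1 and AGO2 reached 10 units in Col-0. DCL1 had 85 and 54 reads in Col-0, 8 and 9 in the double mutant and 2 and 5 in the triple mutant, or 14.8 ± 1.33, 20.2 ± 6.91 and 6.46 ± 4.30 units. AGO2 was highest in the double mutant, the genotype in which the members were lowest, at 357 ± 86.2 against 15.9 ± 2.13 wild-type units and 59.0 ± 10.8 in the triple mutant. AGO1 stood at 14.4 ± 1.46, 30.4 ± 19.3 and 13.9 ± 9.95 units.

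Another 14 loci met the double mutant threshold but had less than the Col-0 value divided by 2 in the triple mutant. MIR822 was the miRNA locus among them, with 536 and 242 reads in Col-0, 0 and 0 in the double mutant, and 4 and 4 in the triple mutant. Its product is known to be made by DCL4 and not by DCL1, unlike the products of most miRNA loci. The others were 6 protein-coding genes, 6 pseudogenes and 1 ID with no RefSeq entry. AT1G12775 and AT1G12620 had 345 and 263 and 214 and 147 reads in Col-0 and none in either triple mutant library. MEE38 had 471 and 419 reads in Col-0, 15 and 4 in the double mutant and 13 and 32 in the triple mutant, a triple mutant mean of 41.5 against 97.4 units in Col-0.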

How the data were processed

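The authors deposited 1 table with 1 value per locus and genotype, which is used here as a signal. It is headed TPM per the file headers, but its columns sum to 235535, 2404778 and 1743399, so the total behind it is unknown. The TAIR10 build, Bowtie 1.2.2, SAMtools 1.9 and DESeq2 are named in the submitters' processing notes. Only the first read of a pair was used, per the labels. The authors' deposited log2 fold changes were used as a check only: over the 76 members with a finite value they differed from the log2 ratio of the means by a median of 0.08. The authors' deposited p-values were not used. No source used here gives strand, read lengths, filters or how multiply matching reads were counted.

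Every deposited value above 0 could be split into whole reads of 2 libraries, each with its own value per read, within a relative tolerance of 1e-13 (100% of values), and the next best pair missed by 1.0e-12 or more. The libraries carry no replicate number. Ratios, SDs, shares and exact 95% counting intervals were computed in Python 3.11.15 with numpy 2.4.6, pandas 2.3.3 and scipy 1.17.1. The recovery of reads and the trimmed-mean rescaling were tested on simulated data. For the rescaling, these were drawn from Col-0 means with a set of loci raised. They did not copy the shift in class totals between the genotypes, so the rescaling was not tested under it. No count model was fitted and no test was run, since the selection used all 3 genotype means, and with 2 libraries against 2 an exact permutation test cannot give a p below 0.333. Locus positions, classes and sequences are from RefSeq TAIR10.1, which matched 83 of the 85 members. Repeats were counted as 21-base words found elsewhere in the genome on either strand.

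The members and lists were chosen with earlier results of these data known. Within each class the loci named were the 12 with the highest Col-0 value, the 3 with the largest loss in ein5 dcl4 and the 3 with the highest ratio of ein5 dcl4 dcl2 to Col-0, plus 2 on each side of every threshold. Members with few reads, family relatives, ARF20, ARF15, SADHU9-1 and the loci that did not come back were named outside this rule, after their values were seen. Alternatives covered scaling, a left-out library, 1 unit added to every value, the thresholds, a minimum of reads and the left-out ID runs.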

Additional observations from a re-analysis of the deposited data

How the results depend on the processing

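The rule found 85 loci in the deposited units, 12 of them miRNA loci. With equal table totals it found 66, of which 14 were among the 85 and 50 were miRNA loci. A trimmed mean of M values gave 67 and equal miRNA totals gave 5, all among the 85. The members' median log2 ratio of ein5 dcl4 to Col-0 was −2.65 as deposited, −6.02 with equal table totals, −2.002 with equal miRNA totals, −2.44 with the trimmed mean and −2.38 with 1 unit added. Their median log2 ratio of ein5 dcl4 dcl2 to Col-0 was 0.29 as deposited and 0.27 with the trimmed mean, and it reversed to −2.58 and −3.11 with equal table and miRNA totals, since equal totals shift every locus by −2.88 and −3.41. Leaving out each library in turn gave 76 to 138 loci, and medians of −2.92 to −2.62 and of 0.24 to 0.32. The 138 and the −2.92 came without ein5 dcl4 library a, and 40 of the 85 met the rule whichever library was left out (9 miRNA loci, 16 protein-coding genes and 15 pseudogenes). A Col-0 minimum of 5 or 20 units gave 215 or 35 loci, an ein5 dcl4 limit of the Col-0 value divided by 2 or by 8 gave 290 or 31, and an ein5 dcl4 dcl2 value at least equal to Col-0 gave 49. The other 4 alternatives gave 75 to 109. The cause of each change was not tested. No paired analysis was possible because the recovered libraries carry no replicate number and the results come from no test. Precision is limited in both mutants by the units per read, since 3 reads were worth 5.75 and 8.37 units in the double mutant libraries, 5.12 and 5.70 in those of the triple mutant, and 0.555 and 0.770 in wild type.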

Other observations

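Inside the left-out runs of locus IDs, 24 further loci met the 3 thresholds. They were 20 pseudogenes, 3 protein-coding genes and 1 other ID, with 10.6 to 43.7 units in Col-0. Their median log2 ratio was −2.42 for ein5 dcl4 to Col-0 and −0.23 for ein5 dcl4 dcl2 to Col-0. None was a miRNA locus.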
